A study of Mus musculus with 18 samples.

Results

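The expression of 9 genes of Nodal signalling and of the primitive streak was followed in mouse embryonic stem cells (ESCs). They were Nodal, Lefty1, Lefty2, T, Mixl1, Gsc, Mesp1, Lhx1 and Wnt3, taken by gene symbol from the 53672 genes listed in each count table, and all 9 were present in every library. RNA-seq had been carried out on E14TG2a ESCs whose endogenous Hdac1 and Hdac2 alleles carry loxP sites and can be deleted with 4-hydroxytamoxifen (OHT). Each line also expressed a stable Flag-tagged HDAC1 rescue transgene, either HDAC1-WT, HDAC1-E63R or HDAC1-Y48E, where E63R and Y48E are single amino acid changes on the surface of the deacetylase that binds its partner complexes. The 6 groups were untreated and OHT-treated cells of the 3 lines, with 3 libraries in each. All groups, untreated cells included, shared the floxed alleles, a rescue transgene and culture on gelatin with serum and leukaemia inhibitory factor. OHT was used at 1 µM, and the sample labels give 5 days, whereas the methods describe 24 h of OHT followed by 4 further days. Each transgene was represented by 1 line, so a difference between lines cannot be told apart from the effect of the transgene. The study describes the 3 libraries of a group as biological replicates, with no statement that lines were derived separately, and p-values measure the spread between these libraries.

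Nodal is a secreted ligand of the TGF-beta family that acts through activin receptors, a Cripto co-receptor (Tdgf1) and SMAD2/3 with FOXH1, and it induces its own gene together with its secreted inhibitors Lefty1 and Lefty2. In the embryo it works with WNT3 to form the primitive streak, where epiblast cells turn on T (brachyury), Mixl1, Gsc (goosecoid), Lhx1 and Mesp1 on their way to mesoderm and endoderm. Mouse ESCs cultured in serum already make Nodal and both Lefty RNAs, while the streak transcription factors are usually found in differentiating cells.

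Levels are given as CPM, counts per 1000000 after the library totals were scaled by TMM factors (trimmed mean of M-values). Counts on genes ranged from 9019615 to 11454638 per library. As a floor, 3 counts, the upper 95% limit allowed by a count of 0, are 0.262 to 0.333 in 1000000 counts on genes, a scale without these factors. Intervals of ratios of summed counts and this floor cover counting error only, and PCR copies of a molecule were not marked. Intervals of log2 fold changes come from the edgeR fit and include the spread fitted between replicates. The deleted genes did not settle the labels. Hdac1, to which transgene reads may also map, lay between 169 and 210 CPM in the HDAC1-WT libraries and between 94.9 and 131 CPM in those of the mutant lines, and Hdac2 between 112 and 210 CPM in all 18. In the HDAC1-WT line Hdac2 fell without overlap, from 169 to 208 CPM untreated to 112 to 133 CPM with OHT. Its log2 fold change there was -0.66 (SE 0.11, edgeR adjusted p = 0.0125). In the HDAC1-E63R (-0.21, SE 0.11) and HDAC1-Y48E (-0.07, SE 0.11) lines the Hdac2 groups overlapped. Neither Hdac1 nor Hdac2 passed the limits of a differentially expressed gene (DEG) after OHT in any line. Counts over whole genes do not show whether the floxed exons are present, so "OHT" below means the libraries labelled so. The third untreated HDAC1-E63R library stood apart, with a mean root-mean-square difference of 1.00 on the log2 scale to the other libraries, against 0.562 to 0.835 for the rest, and the main results that use it are also given without it. In bulk RNA, fewer cells expressing a gene and less RNA per cell cannot be told apart.

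The 9 genes spanned a wide range of levels. Per length of exon, the mean over 18 libraries was 29.2 RPKM (CPM divided by exon length in kilobases) for Nodal, 21.9 for Lefty1 and 19.4 for Lefty2. Gsc followed at 3.27 RPKM, Wnt3 at 0.780, T at 0.304, Mesp1 at 0.212, Mixl1 at 0.146 and Lhx1 at 0.0659. The ligand and its inhibitors were thus well expressed and T, Mesp1, Mixl1 and Lhx1 close to the limit of detection, whereas Gsc was above it in the HDAC1-WT line. Of the 9, 6 genes (Nodal, Lefty1, Lefty2, Gsc, Wnt3 and T) passed the filter on low counts and were tested, and Mesp1, Mixl1 and Lhx1 did not pass it. The spread between replicates fitted for the tested genes, given as a biological coefficient of variation, was 9.18% for Nodal, 18.4% for Lefty1 and 19.9% for Lefty2, beside a median of 18.1% over all tested genes. For Wnt3 it was 39.4%, for Gsc 43.1% and for T 75.4%, so that only large changes of the last 3 could pass the test.

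Promoter sequence is shown for Nodal and Gsc because both genes were lower in the mutant lines than in the HDAC1-WT line. The RefSeq promoter table (GRCm38.p6) covers 250 bases before and 50 after the start site and held Nodal, T, Gsc, Mesp1, Lhx1 and Wnt3, and not Lefty1, Lefty2 or Mixl1. It was searched on both strands for 6 short motifs, and no match given here overlapped another. The stretches below end at the gene's annotated start in GENCODE M21 and run 5′ to 3′ on the strand of the gene, at chr10:61417722-61417971 (plus strand) for Nodal and chr12:104473331-104473486 (minus strand) for Gsc, with matches in capitals.
Nodal: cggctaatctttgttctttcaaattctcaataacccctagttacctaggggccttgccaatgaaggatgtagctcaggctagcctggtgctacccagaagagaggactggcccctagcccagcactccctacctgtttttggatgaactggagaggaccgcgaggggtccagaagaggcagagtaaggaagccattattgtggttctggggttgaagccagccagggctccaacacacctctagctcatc
Gsc: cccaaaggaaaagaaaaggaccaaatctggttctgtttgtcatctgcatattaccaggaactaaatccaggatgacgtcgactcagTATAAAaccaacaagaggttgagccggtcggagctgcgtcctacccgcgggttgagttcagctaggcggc
The Nodal window held none of the 6 motifs. The Gsc window held the TATA box (TATAAA) in capitals, at position -164 from the RefSeq start site, a motif found in 13.6% of the 32851 promoters of the table. Further downstream it held 2 GC boxes (GGGCGG), at -79 and -51, which 35.7% of all promoters hold. T had 2 GC boxes as well, at -222 and -73, and so did Wnt3, at -170 and -45. The SMAD motif (CAGAC) lay at -117 in Mesp1, at -60 in Lhx1 and at -135 in Wnt3, and 49.6% of all promoters hold it. Mesp1 also had a TCF/LEF match (CTTTGAT, in 3.73% of all promoters) at -31. Its T-box match (TCACACCT, in 1.28% of all promoters) lay at position 6. No gene of the 6 held the FOXH1 motif (TGTGNATT), which 3.6% of all promoters do. A match of letters is a description and not a binding site.

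Nodal RNA differed between the lines and moved little after OHT. The gene lies on chromosome 10 from 61417972 to 61425338 (mm10, plus strand, exon length 2095 bases). In the HDAC1-WT line it was measured at 81.5, 94.2 and 75.4 CPM in untreated cells and at 74.9, 79.9 and 80.6 CPM after OHT. The HDAC1-E63R line gave 57.8, 56.0 and 61.4 CPM untreated and 61.4, 61.9 and 56.7 CPM with OHT. In the HDAC1-Y48E line the values were 42.5, 37.3 and 40.7 CPM untreated and 46.1, 48.8 and 45.3 CPM with OHT. Every HDAC1-WT library therefore lay above every HDAC1-E63R library, and every HDAC1-E63R library above every HDAC1-Y48E library. Following the limits of the study, a gene was called a DEG when it moved by more than 2-fold with a p below 0.01 after Benjamini-Hochberg adjustment in edgeR's quasi-likelihood test. By these limits Nodal was lower in untreated HDAC1-Y48E than in untreated HDAC1-WT cells, with a log2 fold change of -1.06 (SE 0.11, edgeR adjusted p = 2.95e-07), although the change fell just short of 2-fold without the second untreated HDAC1-WT library (-0.96, edgeR adjusted p = 6.64e-06). In untreated HDAC1-E63R cells it was lower by less than 2-fold (-0.52, SE 0.11, edgeR adjusted p = 8.27e-04, and -0.55 without the library that stood apart). The OHT responses were -0.09 (95% interval -0.31 to 0.13) in the HDAC1-WT, 0.04 (-0.18 to 0.26) in the HDAC1-E63R and 0.22 (-0.01 to 0.44) in the HDAC1-Y48E line, and none of them passed the test, although all 3 OHT-treated HDAC1-Y48E libraries were above the untreated ones.

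**Figure D1:**
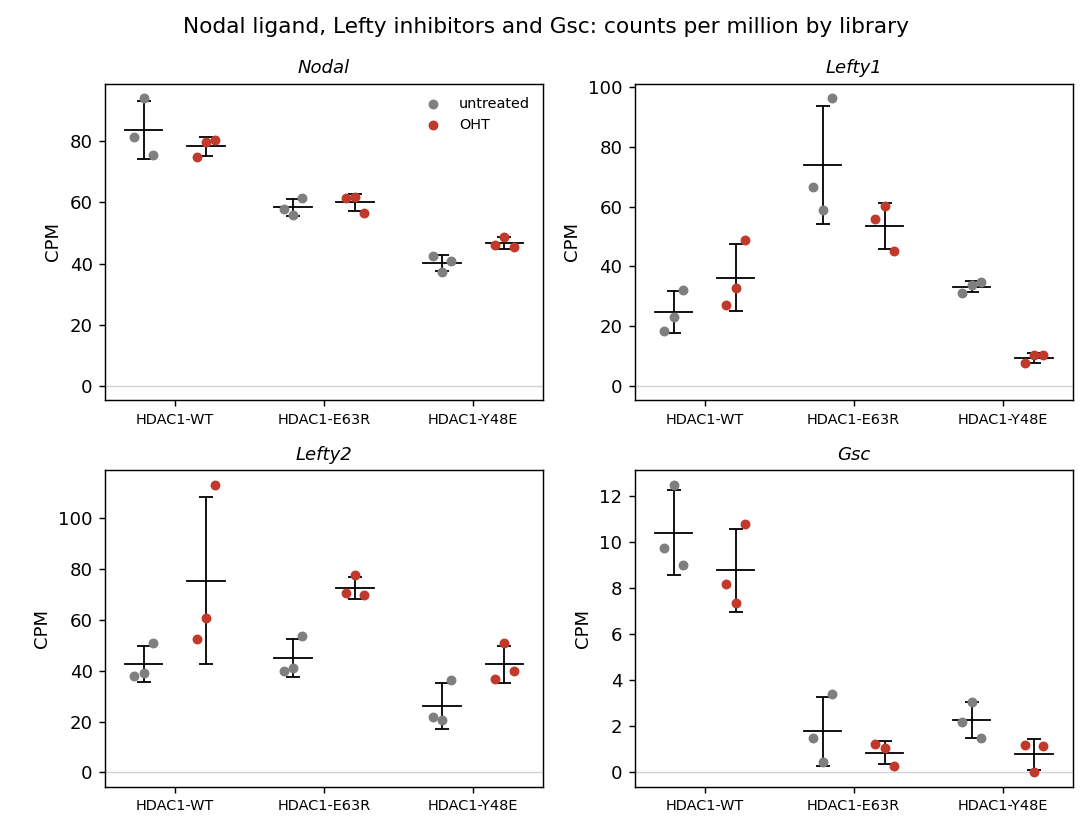
CPM (y axis, linear) of Nodal, Lefty1, Lefty2 and Gsc in the 18 libraries, with 3 grey points for untreated and 3 red points for OHT-treated libraries of each rescue line (x axis); bars are the mean and SD, n = 3. Nodal steps down from line to line, Lefty1 reaches its lowest values, 7.53 to 10.4 CPM, in OHT-treated HDAC1-Y48E cells, and Gsc is high in the HDAC1-WT line only, at 7.35 to 12.5 CPM.

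Lefty1, the inhibitor encoded on chromosome 1 from 180935022 to 180938400 (plus strand, 1758 exon bases), was the one gene of the 6 tested that was a DEG after OHT. It fell in the HDAC1-Y48E line from 31.2, 33.6 and 34.7 CPM in untreated libraries to 7.53, 10.3 and 10.4 CPM with OHT. These groups were far apart, and the log2 fold change was -1.81 (SE 0.24, edgeR adjusted p = 2.48e-06), between -1.89 and -1.68 with any 1 of the 6 libraries left out. Neither of the other lines passed the test. The HDAC1-WT libraries overlapped, at 18.4, 23.1 and 32.2 CPM untreated and 27.1, 32.7 and 48.9 CPM with OHT (log2 fold change 0.56, SE 0.22, edgeR adjusted p = 0.361). The HDAC1-E63R line had the highest levels, 66.7, 59.0 and 96.4 CPM untreated and 55.7, 60.1 and 45.1 CPM with OHT, again with overlap (-0.46, SE 0.21, edgeR adjusted p = 0.116). The 96.4 CPM came from the library that stood apart, and without it the response was -0.23 (edgeR adjusted p = 0.355). The difference in OHT response between the HDAC1-Y48E and HDAC1-WT lines was tested as an interaction and was -2.37 (SE 0.32, edgeR adjusted p = 1.36e-05). That between HDAC1-Y48E and HDAC1-E63R was -1.35 (SE 0.32) and missed the limit (edgeR adjusted p = 0.0137), but it passed without the library that stood apart (-1.58, edgeR adjusted p = 1.32e-05). That between HDAC1-E63R and HDAC1-WT was -1.03 (SE 0.31, edgeR adjusted p = 0.0497), or -0.80 without that library (edgeR adjusted p = 0.0220). Lefty1 was a DEG between untreated cells as well, higher in HDAC1-E63R than in HDAC1-WT by a log2 fold change of 1.59 (SE 0.22, edgeR adjusted p = 1.16e-05), and by 1.36 without the library that stood apart (edgeR adjusted p = 3.95e-08).

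Lefty2, the neighbouring inhibitor gene (chromosome 1, 180893108 to 180899103, plus strand, 2611 exon bases), did not follow Lefty1. In the HDAC1-Y48E line it was measured at 21.6, 20.5 and 36.5 CPM untreated and at 36.7, 50.7 and 39.9 CPM with OHT. The HDAC1-E63R line had 40.0, 41.1 and 53.5 CPM untreated and 70.3, 77.5 and 69.9 CPM with OHT. The HDAC1-WT line had 37.9, 39.2 and 50.8 CPM untreated and 52.3, 60.7 and 113 CPM with OHT. In each line all 3 OHT-treated libraries were above all 3 untreated ones, narrowly so in the HDAC1-Y48E and HDAC1-WT lines. The share of all genes that separate in this way was not counted. The log2 fold changes were 0.70 (SE 0.24, edgeR adjusted p = 0.0238), 0.69 (SE 0.23, edgeR adjusted p = 0.0329) and 0.82 (SE 0.23, edgeR adjusted p = 0.164) in the HDAC1-Y48E, HDAC1-E63R and HDAC1-WT lines, and none was a DEG. Single libraries decided these values, since without the third untreated HDAC1-Y48E library the response there became a DEG (1.01, edgeR adjusted p = 0.00362), and without the third OHT-treated HDAC1-WT library the response of that line was 0.41 (edgeR adjusted p = 0.747). The HDAC1-E63R response was 0.84 (edgeR adjusted p = 9.68e-04) without the library that stood apart, still under 2-fold. The interaction between HDAC1-Y48E and HDAC1-WT was -0.12, with a 95% interval from -0.82 to 0.57. Untreated HDAC1-Y48E libraries all lay below untreated HDAC1-WT libraries (-0.70, SE 0.24, edgeR adjusted p = 0.0425), and Lefty2 became a DEG there without the third untreated HDAC1-Y48E library (-1.02, edgeR adjusted p = 0.00802).

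The Lefty pair was therefore also described by the share of Lefty1 in the sum of both counts, which does not depend on the size of the library. Lefty1 made up 59.2%, 62.1% and 48.7% of the pair in untreated HDAC1-Y48E libraries and 17.0%, 16.9% and 20.8% with OHT. It made up 62.5%, 58.9% and 64.3% untreated and 44.2%, 43.7% and 39.2% with OHT in the HDAC1-E63R line. Of these, 64.3% was the library that stood apart, and the other untreated libraries were also above all OHT-treated ones. The HDAC1-WT line stayed between 30.3% and 38.8% in all 6 libraries. The groups did not overlap in the 2 mutant lines, where the mean fell by 38.4 percentage points in HDAC1-Y48E and by 19.5 in HDAC1-E63R (exact permutation test, two-sided, p = 0.100 in each, the smallest p that 3 against 3 libraries can give), and by 3.04 in HDAC1-WT (exact permutation p = 0.300). Summed over both genes, the HDAC1-Y48E line responded to OHT by -0.19 (SE 0.22, edgeR adjusted p = 0.493), the HDAC1-E63R line by 0.09 (SE 0.21, edgeR adjusted p = 0.807) and the HDAC1-WT line by 0.73 (SE 0.21, edgeR adjusted p = 0.172). The sum was not a DEG in any OHT response or untreated comparison, so the DEG calls of Lefty1 above are calls of that gene alone. The pair was nevertheless higher in untreated HDAC1-E63R than in untreated HDAC1-WT cells, by less than 2-fold (0.82, SE 0.21, edgeR adjusted p = 0.00580). For the sum, no value without the library that stood apart is given. That library had the highest levels of both genes among untreated HDAC1-E63R libraries, 96.4 CPM of Lefty1 and 53.5 CPM of Lefty2. The 2 transcripts are 91.2% identical over 1159 aligned bases, which could split reads between them. Their longest identical run was 140 bases, and no window of 150 bases, the length of 1 read, was identical in both.

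**Figure D2:**
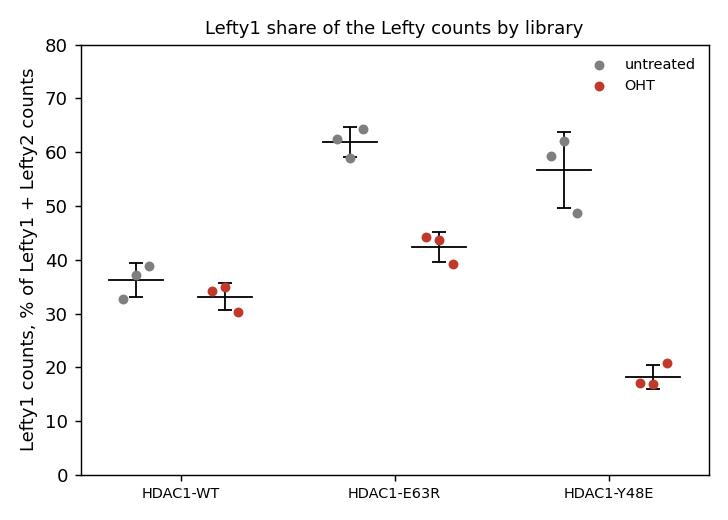
Lefty1 counts as a percentage of Lefty1 plus Lefty2 counts (y axis, from 0) in each library of the 3 rescue lines (x axis), untreated in grey and OHT-treated in red; bars are the mean and SD, n = 3. The share lies between 30.3% and 38.8% in all HDAC1-WT libraries and between 16.9% and 20.8% in OHT-treated HDAC1-Y48E libraries.

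Gsc, a homeobox repressor of the anterior streak and organizer that responds to Nodal, separated the HDAC1-WT line from both mutant lines (chromosome 12, 104471209 to 104473330, minus strand, 1268 exon bases). It was measured at 9.77, 12.5 and 9.0 CPM in untreated and 8.19, 7.35 and 10.8 CPM in OHT-treated HDAC1-WT cells. HDAC1-E63R cells gave 1.48, 0.452 and 3.43 CPM untreated and 1.24, 1.05 and 0.293 CPM with OHT. HDAC1-Y48E cells gave 2.20, 3.07 and 1.51 CPM untreated and 1.20, 0 and 1.17 CPM with OHT. All 6 HDAC1-WT libraries lay above all 12 libraries of the mutant lines. Between untreated cells Gsc was a DEG in both mutant lines, with log2 fold changes of -2.55 (SE 0.59, edgeR adjusted p = 0.00241) in HDAC1-E63R and -2.20 (SE 0.58, edgeR adjusted p = 0.00807) in HDAC1-Y48E against HDAC1-WT. The HDAC1-Y48E call was lost whichever of the 6 libraries was left out (-2.49 to -1.98, edgeR adjusted p from 0.0162 to 0.0452). The HDAC1-E63R call was lost without the second untreated HDAC1-WT library (-2.38, edgeR adjusted p = 0.0125) or the first untreated HDAC1-E63R library (-2.42, edgeR adjusted p = 0.0117), and it was -3.37 (edgeR adjusted p = 8.65e-06) without the library that stood apart. The OHT-treated cells of the lines were also compared, a comparison added after the data had been seen. There Gsc was lower than in HDAC1-WT cells by -3.31 (SE 0.63, edgeR adjusted p = 3.33e-04) in HDAC1-E63R and by -3.46 (SE 0.64, edgeR adjusted p = 1.36e-04) in HDAC1-Y48E, and both calls held with each library left out, between -3.88 and -2.87. Within a line Gsc did not pass the test after OHT, at -0.25 (SE 0.52, edgeR adjusted p = 0.945) in HDAC1-WT, -1.01 (SE 0.67, edgeR adjusted p = 0.292) in HDAC1-E63R and -1.51 (SE 0.67, edgeR adjusted p = 0.0747) in HDAC1-Y48E. With 1 library left out the HDAC1-E63R value lay between -1.46 and -0.19, the latter without the library that stood apart, and the HDAC1-Y48E value between -1.93 and -0.92, the latter without the second OHT-treated library, in which Gsc had no count.

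Gsc was thus lower in every OHT-treated HDAC1-Y48E library than in every untreated one, and the other streak transcription factors lay otherwise. T, Mixl1 and Lhx1 had 0 to 3 counts in every untreated library of that line and 4 to 15 in every OHT-treated one, and Mesp1 overlapped, with 5 counts in all untreated and 10 in all OHT-treated libraries. Of these 5 genes only Gsc and T were tested, and neither was a DEG after OHT in that line. There 10.8% of all tested genes were DEGs that rose and 5.84% DEGs that fell. Mixl1, Lhx1 and Mesp1 did not pass the filter on low counts and could not be called. For these 5 and the other members, the share of all genes whose groups do not overlap was not counted. Whether the members stand out by such separation is therefore not known. T, the T-box factor that defines the streak (chromosome 17, 8434423 to 8442496, plus strand, 2315 exon bases), had 3, 2 and 0 counts in untreated and 15, 14 and 11 counts in OHT-treated HDAC1-Y48E libraries, or a mean of 0.186 CPM and 1.25 CPM. The groups did not overlap, and the log2 fold change was 2.68 with a 95% interval from 0.18 to 5.19 (SE 1.21, edgeR adjusted p = 0.0767). Untreated HDAC1-WT libraries had 14, 12 and 12 counts, which overlap with that OHT level and lie above all untreated libraries of both mutant lines. T was uneven elsewhere, with 0, 18 and 2 counts in OHT-treated HDAC1-WT libraries, 7, 1 and 8 in untreated and 0, 8 and 5 in OHT-treated HDAC1-E63R libraries. In the HDAC1-E63R and HDAC1-WT lines the OHT-treated and untreated libraries thus overlapped, with log2 fold changes of -0.44 (SE 1.13, edgeR adjusted p = 0.817) and -0.97 (SE 1.04, edgeR adjusted p = 0.851). The former was 0.06 without the library that stood apart.

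Mixl1, a paired-like homeobox gene of streak mesendoderm (chromosome 1, 180693043 to 180697034, minus strand, 2294 exon bases), had 0 counts in all 3 untreated HDAC1-Y48E libraries and 4, 8 and 11 counts with OHT. The lower 95% limit of the ratio, for counting error, was 5.6, and the 23 counts were 7.47-fold above a floor of 3 counts over the untreated group. Untreated HDAC1-WT libraries were split, with 0, 10 and 11 counts, and OHT-treated ones had 4, 2 and 0. HDAC1-E63R libraries had 2, 4 and 0 counts untreated and 4, 0 and 4 with OHT. Mixl1 did not pass the filter on low counts, and in a fit without that filter its edgeR adjusted p in the HDAC1-Y48E line was 0.0216.

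Lhx1, a LIM homeobox gene of the anterior streak (chromosome 11, 84518284 to 84525535, minus strand, 4072 exon bases), had 0, 0 and 2 counts in untreated and 10, 10 and 9 in OHT-treated HDAC1-Y48E libraries. The ratio of the summed counts, scaled to library totals, was 14.1 (95% interval for counting error 3.57 to 122). HDAC1-E63R libraries had 0, 1 and 0 counts untreated and 8, 5 and 2 with OHT, a ratio of 15.0 (2.31 to 631). HDAC1-WT libraries had 0, 3 and 0 counts untreated and 0, 0 and 2 with OHT, so that no change was detectable at this depth. Without the filter the edgeR adjusted p was 0.164 in the HDAC1-Y48E and 0.298 in the HDAC1-E63R line. Mesp1, a basic helix-loop-helix factor of nascent mesoderm (chromosome 7, 79792241 to 79793788, minus strand, 1275 exon bases), had between 0 and 10 counts in the 18 libraries, and the groups of every line overlapped.

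Wnt3, the ligand that acts upstream of the streak (chromosome 11, 103774150 to 103817957, plus strand, 3076 exon bases), was low and a DEG in no comparison. It had 1.49, 1.18 and 1.30 CPM in untreated and 3.76, 2.00 and 1.68 CPM in OHT-treated HDAC1-WT libraries, which did not overlap (log2 fold change 0.90, SE 0.55, edgeR adjusted p = 0.650). HDAC1-E63R libraries ranged from 2.03 to 4.74 CPM untreated and from 2.35 to 3.91 CPM with OHT, and in the HDAC1-Y48E line from 0.754 to 3.07 CPM and from 1.20 to 3.69 CPM. The 95% intervals of these responses, -1.05 to 1.12 and -0.51 to 1.76, do not exclude a 2-fold change, and without the library that stood apart the HDAC1-E63R response was -0.09. Untreated HDAC1-E63R libraries were all above untreated HDAC1-WT libraries (1.22, SE 0.55, edgeR adjusted p = 0.107, and 1.34 without the library that stood apart).

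**Figure D3:**
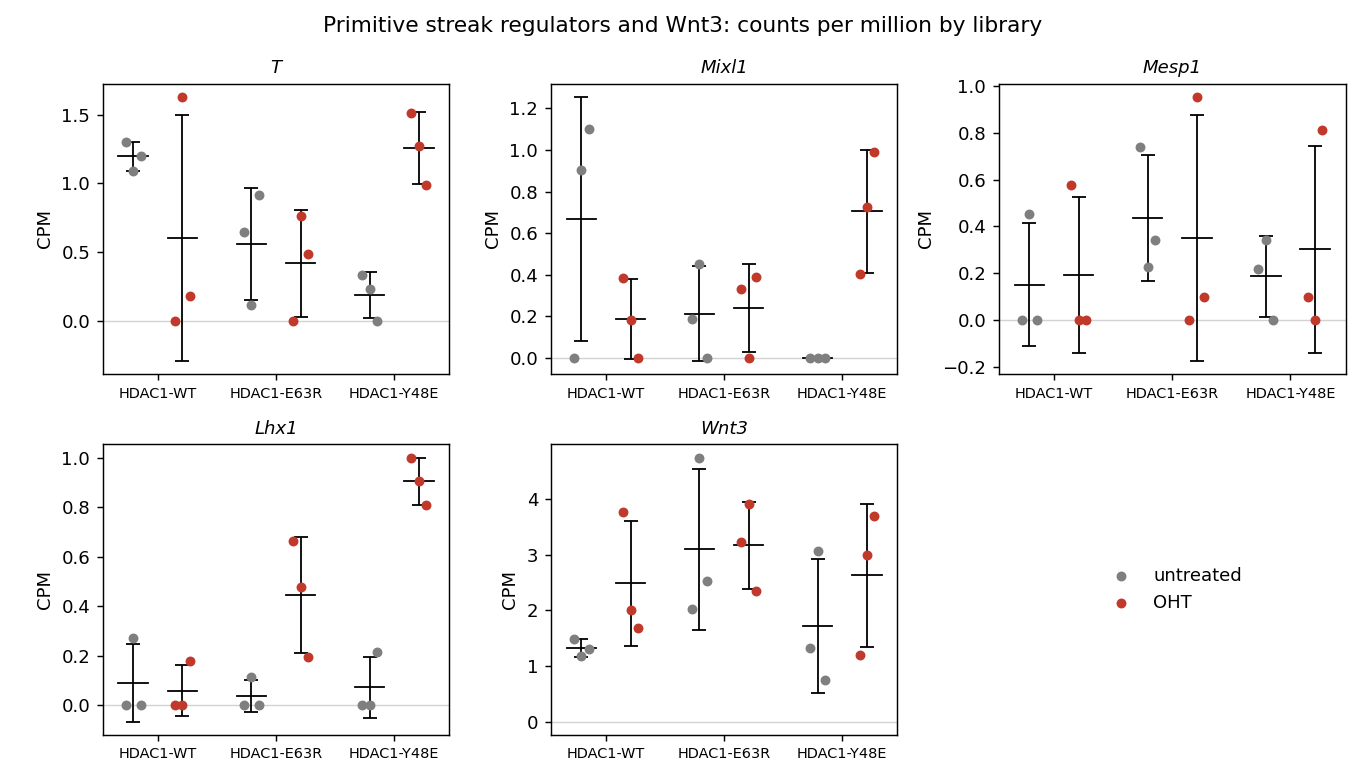
CPM (y axes, linear, with different scales; the grey line marks 0) of T, Mixl1, Mesp1, Lhx1 and Wnt3 in each library of the 3 rescue lines (x axes), untreated in grey and OHT-treated in red; bars are the mean and SD, n = 3, and run below 0 where the SD exceeds the mean. OHT-treated HDAC1-Y48E libraries have 0.810 to 1.00 CPM of Lhx1, above every other library, whereas their 0.990 to 1.51 CPM of T overlap with the HDAC1-WT line.

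Counted over the 6 tested genes, 0 rose and 0 fell in the HDAC1-WT line after OHT, where 0.0373% of all tested genes were DEGs that rose and 0.0160% DEGs that fell. At an unadjusted p under 0.05, 2 of the 6 were higher and 0 lower, and DESeq2 called 0. For the HDAC1-E63R line the counts were also 0 and 0, beside 4.74% and 1.18% of all tested genes, with 1 higher and 1 lower at an unadjusted p under 0.05 and 0 called by DESeq2. In the HDAC1-Y48E line 0 of 6 rose and 1 fell, Lefty1, beside 10.8% and 5.84% of all tested genes. The median log2 fold change of the 6 was 0.42 in this line, -0.20 in the HDAC1-E63R and 0.24 in the HDAC1-WT line, beside 0.05, 0.03 and 0.00 over all tested genes. For the interaction of HDAC1-Y48E with HDAC1-WT, 0 of the 6 were higher and 1 lower, again Lefty1, beside 4.65% and 3.97%. For HDAC1-E63R against HDAC1-WT both counts were 0 beside 1.25% and 0.436% (0 higher and 1 lower at an unadjusted p under 0.05, 0 by DESeq2), and for HDAC1-Y48E against HDAC1-E63R both were 0 beside 0.319% and 0.990% (0 and 1 at an unadjusted p under 0.05, and 1 lower by DESeq2, Lefty1).

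Between untreated cells, 1 of the 6 was higher (Lefty1) and 1 lower (Gsc) in HDAC1-E63R than in HDAC1-WT, beside 3.32% and 4.33% of all tested genes, and 0 were higher and 2 lower (Nodal and Gsc) in HDAC1-Y48E, beside 2.62% and 2.95%. Between OHT-treated cells, 0 were higher and 1 lower (Gsc) in HDAC1-E63R, beside 5.93% and 3.43%, and 0 were higher and 2 lower (Lefty1 at -1.94, SE 0.24, edgeR adjusted p = 7.29e-07, and Gsc) in HDAC1-Y48E, beside 11.0% and 7.23%. In that last comparison Nodal was lower by less than 2-fold (-0.75, SE 0.11, edgeR adjusted p = 6.25e-06), and so was Lefty2 (-0.83, SE 0.23, edgeR adjusted p = 0.00632), which passed 2-fold without the first OHT-treated HDAC1-WT library (-1.03, edgeR adjusted p = 0.00165) and was -0.41 without the third (edgeR adjusted p = 0.121). Summed, Lefty1 and Lefty2 were lower there by -1.10 (SE 0.22, edgeR adjusted p = 2.43e-04). These comparisons share the libraries of the HDAC1-WT line and are not independent.

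**Figure D4:**
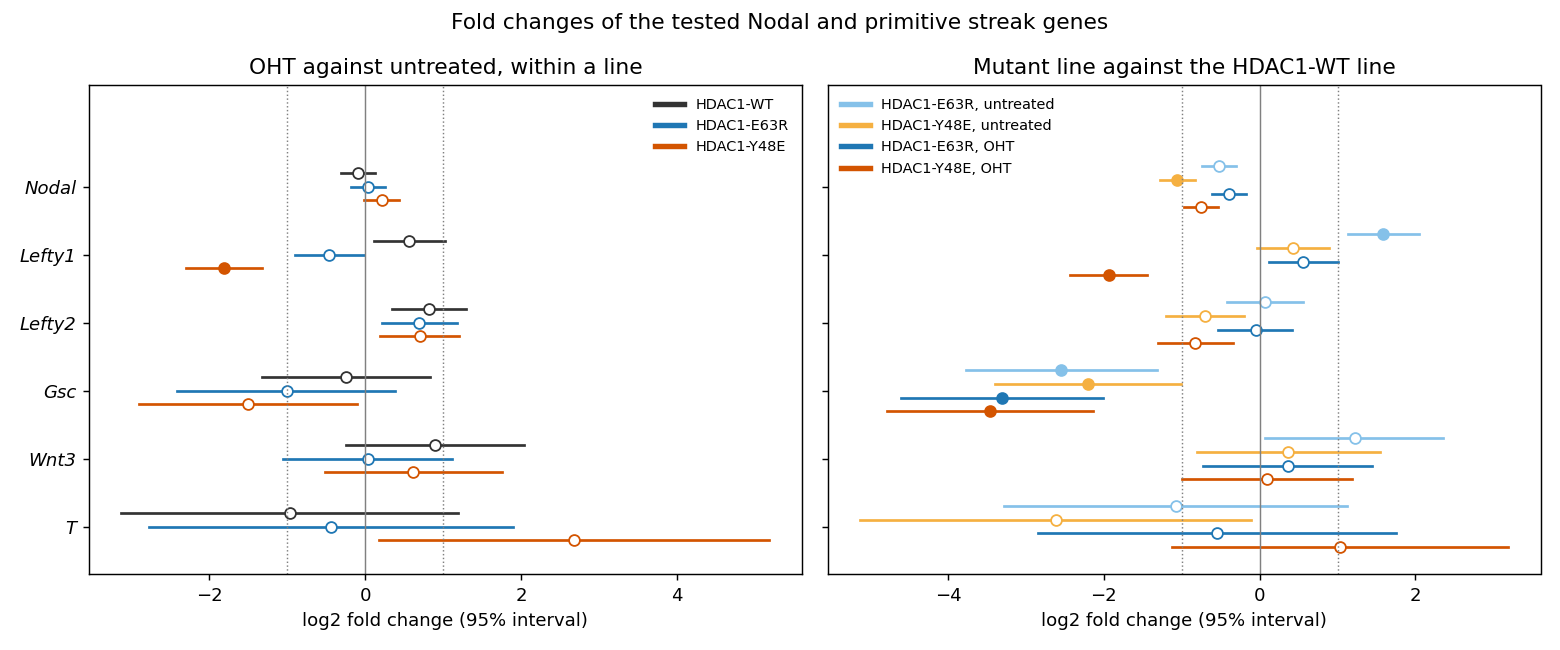
Log2 fold changes (x axes) with 95% intervals from the edgeR fit for the 6 tested genes (y axis), for OHT against untreated cells in each rescue line (left) and for each mutant line against the HDAC1-WT line (right); filled points are DEGs and dotted lines mark a 2-fold change. On the left only Lefty1 in the HDAC1-Y48E line is filled, at -1.81, and on the right all 4 values of Gsc are, from -3.46 to -2.20.

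The other genes of the Nodal pathway, 22 ligands, proteases, receptors, SMADs and co-regulators, held 4 genes that fell after OHT in the HDAC1-Y48E line and 0 that rose, of 18 tested, beside 5.84% and 10.8% of all tested genes. Gdf3, a TGF-beta ligand that signals through the same receptors, fell from 72.8, 78.5 and 69.4 CPM to 13.2, 14.1 and 12.4 CPM (log2 fold change -2.47, SE 0.12, edgeR adjusted p = 1.51e-12). Foxh1, which brings SMAD complexes to Nodal target genes, fell from 79.7, 73.7 and 70.4 CPM to 30.2, 28.4 and 30.0 CPM (-1.34, SE 0.14, edgeR adjusted p = 6.30e-08). Both genes had no overlap between groups. The HDAC1-WT libraries had 26.7 to 42.1 CPM of Foxh1, so its fall in the HDAC1-Y48E line ended within their range. Tdgf1, the co-receptor, fell from 963, 1020 and 1020 CPM to 434, 471 and 419 CPM (-1.18, SE 0.11, edgeR adjusted p = 1.73e-08), with part of its transcript (512 bases) 98.8% identical to the pseudogene Tdgf1-ps1. Tgif1, a repressor of SMAD-driven transcription, fell from 107, 92.9 and 111 CPM to 46.8, 54.6 and 48.8 CPM (-1.05, SE 0.11, edgeR adjusted p = 8.56e-08). All 4 calls held with each library left out.

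The same 4 genes differed in OHT response between the HDAC1-Y48E and HDAC1-WT lines, with interactions of -2.54 for Gdf3, -1.52 for Foxh1, -1.52 for Tdgf1 and -1.38 for Tgif1 (edgeR adjusted p of 4.81e-06 or less). Gdf3 also differed between HDAC1-Y48E and HDAC1-E63R (-1.65, SE 0.16, edgeR adjusted p = 2.29e-06). In HDAC1-E63R cells the list held 0 DEGs by edgeR and by DESeq2, with 3 genes higher and 4 lower at an unadjusted p under 0.05, and 0 by edgeR also without the library that stood apart. Gdf3 and Foxh1 were nevertheless lower by less than 2-fold there, without overlap between groups. Gdf3 went from 62.6, 63.6 and 78.7 CPM to 40.1, 37.3 and 38.2 CPM (-0.82, SE 0.11, edgeR adjusted p = 1.62e-05, and -0.71 without the library that stood apart). Foxh1 went from 72.0, 68.9 and 66.0 CPM to 45.8, 44.4 and 38.9 CPM (-0.68, SE 0.13, edgeR adjusted p = 6.79e-04, and -0.71 without that library). For HDAC1-WT the list held 0 DEGs by edgeR and by DESeq2, with 3 genes higher and 0 lower at an unadjusted p under 0.05. Type I and II receptors and SMADs moved by less than 2-fold in the HDAC1-Y48E line and in both directions, for example Acvr2a (0.73, SE 0.18, edgeR adjusted p = 0.00214), Acvr1b (-0.43, SE 0.13, edgeR adjusted p = 0.0119), Smad2 (0.08, SE 0.13, edgeR adjusted p = 0.674) and Smad3 (-0.58, SE 0.16, edgeR adjusted p = 0.00457). The median log2 fold change of the list was -0.31 in the HDAC1-Y48E, -0.09 in the HDAC1-E63R and 0.13 in the HDAC1-WT line, beside 0.05, 0.03 and 0.00 over all tested genes. Gdf1 and Cer1 had 0 counts in all 18 libraries.

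Between untreated cells 1 gene of this list was higher and 2 were lower than in HDAC1-WT in each mutant line, beside 3.32% and 4.33% of all tested genes in HDAC1-E63R and 2.62% and 2.95% in HDAC1-Y48E. Foxh1 was the higher one, by 1.08 in HDAC1-E63R and 1.19 in HDAC1-Y48E (SE 0.13 in each, edgeR adjusted p of 3.08e-06 or less). The lower ones were Pcsk6, a protease that can process the Nodal precursor (-1.20 in HDAC1-E63R and -1.28 in HDAC1-Y48E), and Smad7, an inhibitory SMAD (-1.17 and -1.30), all with an edgeR adjusted p of 4.98e-07 or less. Without the library that stood apart the HDAC1-E63R values were 1.12 for Foxh1, -1.06 for Pcsk6 and -1.07 for Smad7, all still DEGs.

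**Figure D5:**
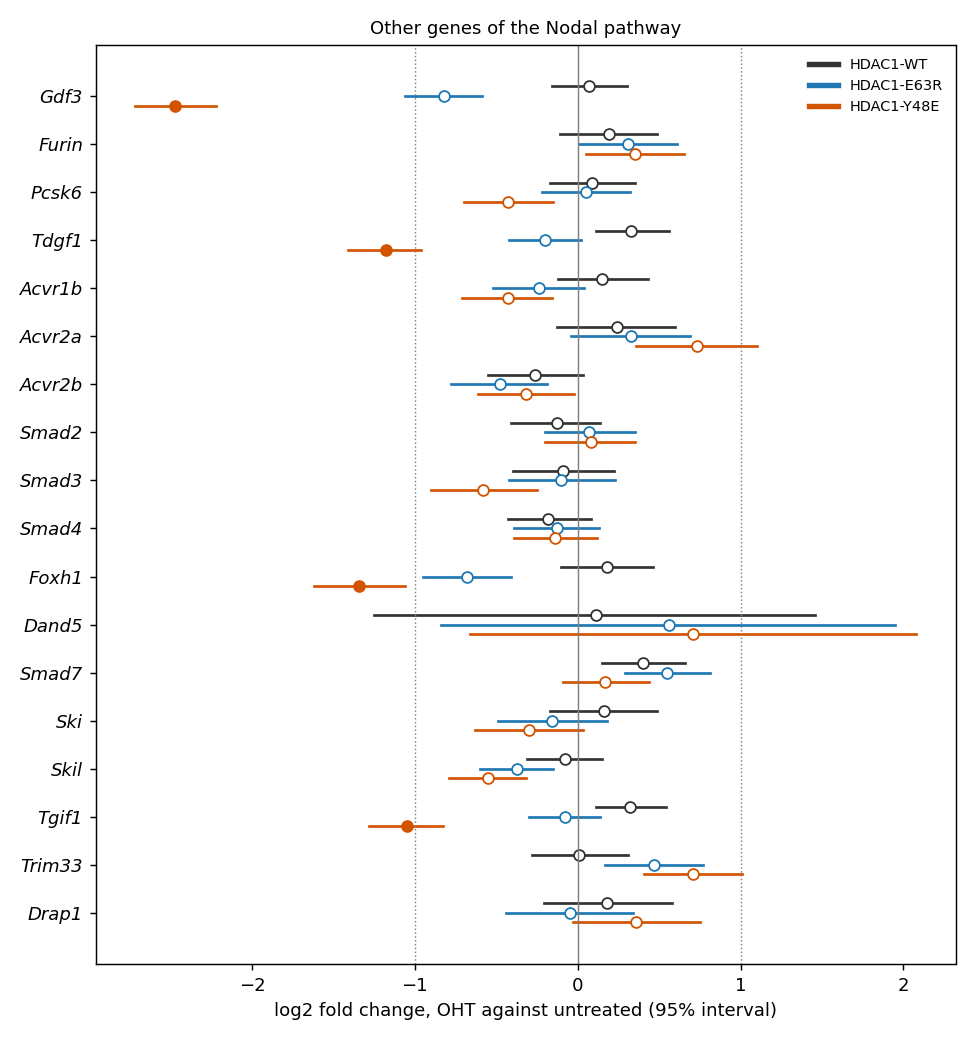
Log2 fold changes after OHT (x axis) with 95% intervals from the edgeR fit for the 18 tested genes of the Nodal pathway list (y axis), in black for the HDAC1-WT, blue for the HDAC1-E63R and orange for the HDAC1-Y48E line; filled points are DEGs and dotted lines mark a 2-fold change. Gdf3, Tdgf1, Foxh1 and Tgif1 are filled in the HDAC1-Y48E line, at -2.47 to -1.05, and no point is filled in the other lines.

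Among 20 further genes of the primitive streak and early mesoderm or endoderm, 15 were tested, and 3 rose and 1 fell in the HDAC1-Y48E line after OHT, beside 10.8% and 5.84% of all tested genes, so that the count that fell is near the background. Dkk1, a secreted WNT inhibitor, had 0, 0.114 and 0 CPM untreated and 6.93, 4.17 and 6.93 CPM with OHT, or 1 and 192 counts in all, a ratio of 187 (95% interval for counting error 33.2 to 7430, edgeR adjusted p = 1.67e-04). Wnt3a, a ligand of the posterior streak, rose from 0.110, 0.911 and 0.108 CPM to 2.21, 3.54 and 4.59 CPM (log2 fold change 3.17, SE 0.86, edgeR adjusted p = 0.00471). Eomes, a T-box factor of the streak, rose from 7.70, 6.95 and 7.0 CPM to 13.9, 16.1 and 15.2 CPM (1.06, SE 0.22, edgeR adjusted p = 4.04e-04), and shares 2.84% of its exon bases with an antisense gene. Its level stayed under the HDAC1-WT means of 20.4 CPM untreated and 26.3 CPM with OHT. Mesp2, the paralogue of Mesp1, fell (-1.23, SE 0.37, edgeR adjusted p = 0.00975). Its value was as low in the HDAC1-WT line, where 6.23, 7.07 and 6.4 CPM stood against 2.79, 2.72 and 2.38 CPM with OHT and the test was not passed (-1.32, SE 0.35, edgeR adjusted p = 0.129). The calls of Dkk1 and Eomes held with each library left out, whereas that of Wnt3a held in 2 and that of Mesp2 in 1 of the 6 such fits.

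No gene of this list differed in OHT response between the HDAC1-Y48E and HDAC1-WT lines by the limits of a DEG. The counts were 0 higher and 0 lower, with 4 and 2 at an unadjusted p under 0.05, and DESeq2 called 1 higher. Otx2, a homeobox factor of epiblast and anterior streak, rose in the HDAC1-E63R line from 1.57, 0.565 and 1.60 CPM to 8.53, 4.67 and 7.92 CPM (2.47, SE 0.36, edgeR adjusted p = 2.82e-05), still far under its 44.6 to 77.4 CPM in the HDAC1-WT line, and its response differed between these lines by 1.88 (SE 0.43, edgeR adjusted p = 0.00994). Mesp2 fell in HDAC1-E63R cells (-2.44, SE 0.37, edgeR adjusted p = 4.42e-05), and both genes stayed DEGs without the library that stood apart (2.65 for Otx2 and -2.13 for Mesp2). These 2 of 15 genes stand beside 4.74% of all tested genes that rose and 1.18% that fell. HDAC1-WT cells held 0 DEGs of this list by edgeR and by DESeq2, with 2 higher and 1 lower at an unadjusted p under 0.05. The median log2 fold change was 0.81 in the HDAC1-Y48E, 0.15 in the HDAC1-E63R and 0.32 in the HDAC1-WT line, beside the same all-gene medians of 0.05, 0.03 and 0.00. Otx2 and Eomes were lower than in HDAC1-WT cells in both untreated mutant lines, Otx2 by -5.21 (SE 0.33) in HDAC1-E63R and -2.72 (SE 0.26) in HDAC1-Y48E and Eomes by -1.66 (SE 0.22) and -1.50 (SE 0.21), with an edgeR adjusted p of 2.25e-05 or less. Without the library that stood apart the HDAC1-E63R values were -5.38 for Otx2 and -1.64 for Eomes.

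Target genes of canonical WNT signalling gave no single direction. Of 12 genes 11 were tested, and in the HDAC1-Y48E line 2 rose, Dkk1 and the feedback inhibitor Nkd1 (9.90, 11.2 and 7.32 CPM to 23.4, 31.0 and 32.9 CPM, log2 fold change 1.62, SE 0.25, edgeR adjusted p = 2.11e-05), and 1 fell, the receptor ligase Rnf43 (5.39, 7.74 and 10.4 CPM to 0.803, 1.36 and 2.07 CPM, -2.46, SE 0.40, edgeR adjusted p = 3.56e-05), beside 10.8% and 5.84% of all tested genes. Rnf43 alone fell in the HDAC1-E63R line (-2.12, SE 0.40, edgeR adjusted p = 5.52e-04), with 1 gene that rose and 1 that fell without the library that stood apart. HDAC1-WT cells held 0 DEGs by either tool, with 1 higher and 0 lower at an unadjusted p under 0.05. The medians were 0.17, 0.20 and 0.24 in the HDAC1-Y48E, HDAC1-E63R and HDAC1-WT lines, beside 0.05, 0.03 and 0.00 over all tested genes.

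Markers of the cell state moved in the same comparisons, in which 10.8% of all tested genes rose and 5.84% fell in the HDAC1-Y48E line, and 4.74% and 1.18% in the HDAC1-E63R line. The 10 ESC markers, present in all libraries, summed to between 5760 and 5850 CPM in untreated and between 2420 and 2550 CPM in OHT-treated HDAC1-Y48E libraries, and 7 of the 10 fell, among them Fgf4 (-3.06), Esrrb (-1.64), Pou5f1 (-1.52) and Nanog (-1.29), with 0 that rose. In the HDAC1-E63R line 1 fell, Fgf4 (-1.26), and the sum went from 4860 to 7630 CPM untreated, the highest being the library that stood apart, to 3940 to 4230 CPM. For HDAC1-WT 0 of the 10 passed by edgeR or DESeq2, with 5 higher and 1 lower at an unadjusted p under 0.05, and the sum lay between 7360 and 7900 CPM. Markers of formative and primed epiblast summed to 245 to 264 CPM untreated and 535 to 592 CPM with OHT in the HDAC1-Y48E line, where 3 of 8 tested rose (Dnmt3a, Dnmt3b and Grhl2) and 0 fell. Most of the rise in this sum was Dnmt3a, whose mean went from 97.1 to 340 CPM. Of the 5 not called there, Zic2 (-0.92), Sfrp2 (-0.47) and Otx2 were lower, and Pou3f1 (0.70) and Sox3 (0.58) higher. In the HDAC1-E63R line (236 to 291 CPM and 450 to 457 CPM) 3 rose as well, Otx2, Dnmt3a and Grhl2, whereas Otx2 was at -0.28 in the HDAC1-Y48E line (edgeR adjusted p = 0.441). Fgf5, which defines that state, was not tested and was close to the limit of detection in every group, with group means of 0 to 0.372 CPM. It had 0 counts in untreated HDAC1-Y48E and OHT-treated HDAC1-E63R libraries. Trophoblast markers went from 205 to 228 CPM to 657 to 732 CPM in the HDAC1-Y48E line, with 4 of 10 that rose and 0 that fell, and from 181 to 219 CPM to 358 to 370 CPM in the HDAC1-E63R line, with 3 that rose and 1 that fell. The 4 of the HDAC1-Y48E line were Krt18, Hand1, Gata3 and Krt7. Krt18 made up most of the rise in that sum, with means of 41.8 CPM untreated and 449 CPM with OHT. Of the 6 not called there, Ascl2 (-1.16), Cdx2 (-0.58) and Tfap2c (-0.14) were lower. Elf5 (2.39), Gata2 (0.72) and Tead4 (0.09) were higher. Of 9 tested primitive endoderm markers 1 rose in the HDAC1-Y48E line (252 to 278 CPM and 288 to 310 CPM) and 2 in the HDAC1-E63R line (80.7 to 160 CPM and 218 to 230 CPM), with 0 that fell, and the first of these shares is near the background. Neural ectoderm markers summed to 56.2 to 63.2 CPM and 73.7 to 80.4 CPM in the HDAC1-Y48E line (1 of 7 rose and 2 fell) and to 52.2 to 55.6 CPM and 46.6 to 52.2 CPM in the HDAC1-E63R line (0 called by edgeR and DESeq2, with 0 higher and 2 lower at an unadjusted p under 0.05). Later mesoderm markers summed to 57.4 to 64.6 CPM and 47.4 to 58.4 CPM in the HDAC1-Y48E line and to 58.6 to 122 CPM and 85.8 to 93.7 CPM in the HDAC1-E63R line, with 1 of 8 that rose in each, Kdr. For HDAC1-WT 0 genes of the lists other than the ESC markers passed by edgeR or DESeq2, with 0 to 2 genes of a list higher and 0 or 1 lower at an unadjusted p under 0.05. Without the untreated library that stood apart, the HDAC1-E63R line held 2 formative markers that rose, 0 changed primitive endoderm markers, 4 trophoblast markers that rose and 0 that fell, and 1 neural marker that fell, while 4.71% of all tested genes rose and 1.03% fell. The part of these changes in the values of Lefty1 and of the streak genes was not tested.

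Across the 18 libraries, the genes whose pattern was most like that of a member were found by the root-mean-square difference of centred log2 CPM. Nodal was most like Dusp9 (0.143), Nxn (0.165) and Cotl1 (0.170), closer than its own standard deviation of 0.381. Lefty1 was most like Msmo1 (0.412, own standard deviation 0.966), Aoc3 and Mymx, and Lefty2 most like Manba (0.316, own standard deviation 0.587), Mns1 and Tyms. Gsc was most like Pdgfc (0.680, own standard deviation 1.67), Cbr3 and Hoxc12, and Wnt3 most like Lman2l (0.474, own standard deviation 0.654), Mrgbp and Slc47a2. Among the tested genes ranked by likeness to Nodal, Lefty2 stood at place 5813, Lefty1 at 14686 and Gsc at 17641. In the reverse rankings Nodal stood at place 260 by likeness to Lefty2, at 1842 by likeness to Gsc and at 5673 by likeness to Lefty1. The libraries share lines and depth, and these likenesses are given as a description.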

How the data were processed

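RNA-seq libraries from 3 rescue lines, untreated and OHT-treated, had 3 replicates in each of 6 groups. The deposited values are raw counts per gene symbol, without normalization, which the authors made from paired-end reads of 150 bases mapped to mm10. The submitters' processing notes name HISAT2 2.1.0, SAMtools 1.9 and HTSeq, and the annotation and the use of strand are not given in the sources used here, so that genes overlapping on opposite strands share an uncertainty. GENCODE M21 placed no other gene over any of the 9 members. Read pairs that the files list under no gene (no feature, ambiguous, low quality, unaligned or not uniquely aligned), 59.4% to 61.2% per library, were left out of library sizes and tests.

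Of 53672 genes listed, 18791 passed filterByExpr by group and were fitted with edgeR 4.0.16 (TMM factors, 1 quasi-likelihood model over 18 libraries, R 4.3.3), with p-values adjusted by Benjamini-Hochberg over all of them. DEGs were genes past 1 on the log2 scale in either direction with the adjusted value below 0.01. SE was the fold change divided by the square root of F. CPM used library totals over the tested genes multiplied by the TMM factors, and RPKM divided these by exon lengths of GENCODE M21. The floor of 3 counts and the ratios of summed counts used totals over all genes, without TMM factors. The 9 members, the lists and the tests were chosen with earlier results of these data known. Beside the members, named genes were up to 6 DEGs per list and OHT comparison without overlap between groups, the largest first, and the 3 genes most like each member whose mean was at least 1 CPM and whose group means spanned at least 1 on the log2 scale. DEGs of the lists in the other comparisons and genes named as not called were chosen after their values were seen. The comparisons of OHT-treated lines were added after the data had been seen, as were fits of the lists without the third untreated HDAC1-E63R library. The alternatives tried were size factors by relative log expression, no filter, a replicate block, DESeq2 1.42.0, an adjusted p limit of 0.05, Lefty1 and Lefty2 summed, only the libraries compared, and each library left out. A gene of the pathway list is not reported here. No replicate pair agreed within sampling noise. The fits were tested on simulated counts.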

Additional observations from a re-analysis of the deposited data

Results flagged for a closer look

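One result met a rule for a closer look, because the OHT response differed between lines by a test of the difference itself. The response of Lefty1 in the HDAC1-Y48E line minus that in the HDAC1-WT line was -2.37 on the log2 scale (SE 0.32, edgeR adjusted p = 1.36e-05), from a fall of 1.81 in the former and a change of 0.56 in the latter, with all 3 OHT-treated HDAC1-Y48E libraries below their 3 untreated ones. It lay between -2.63 and -2.10 with each of the 12 libraries left out. With Lefty1 and Lefty2 summed the difference was -0.92 (SE 0.30, edgeR adjusted p = 0.0315).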

How the results depend on the processing

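Relative log expression factors changed no call and no direction. The fall of Lefty1 in the HDAC1-Y48E line and its difference from the HDAC1-WT line stayed DEGs under every alternative that keeps the gene on its own, and 0 DEGs were left in both comparisons when Lefty1 and Lefty2 were summed, as for the higher Lefty1 of untreated HDAC1-E63R cells (0). In the difference between HDAC1-E63R and HDAC1-WT, 1 gene was lower, Lefty1, with no filter on low counts and with an adjusted p limit of 0.05. In that between HDAC1-Y48E and HDAC1-E63R, 1 gene was lower, Lefty1, with no filter, with the replicate block, with the limit of 0.05 and with DESeq2. With only the libraries compared, 0 genes were lower in untreated HDAC1-E63R cells, since Gsc missed the limit (-2.54, edgeR adjusted p = 0.0172).

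Replicate numbers are shared by the groups, but same-numbered libraries of a line deviated together only weakly (correlations from -0.0194 to 0.0441). Untreated libraries were each closest to the OHT-treated library of their own number, except the second of HDAC1-WT and of HDAC1-E63R, which were closest to number 1. With correlations this low, the numbers were not taken as pairs in the main fit. With the replicate block, 1 gene was lower in untreated HDAC1-Y48E cells, Gsc being lost (-2.20, edgeR adjusted p = 0.0127), and Lefty2 between OHT-treated HDAC1-E63R and HDAC1-WT cells turned to 0.02. Its near-zero difference between HDAC1-Y48E and HDAC1-E63R turned to -0.01 with no filter.

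With 1 library left out, members lower in untreated HDAC1-Y48E cells numbered 0 to 2 and in untreated HDAC1-E63R cells 0 to 1, members that rose after OHT in HDAC1-Y48E 0 to 1, and members lower in HDAC1-Y48E against HDAC1-E63R 0 to 1. Some values changed sign in the same fits, so that 1 library decided their direction, and none of them was a DEG. After OHT these were Nodal in HDAC1-WT (-0.16 to 0.00) and T (-1.21 to 0.16) and Wnt3 (-0.20 to 0.48) in HDAC1-E63R. In the differences between responses they were T (-0.24 to 3.11), Lefty2 (-0.33 to 0.29) and Gsc (-1.21 to 0.06) for HDAC1-E63R against HDAC1-WT, Wnt3 (-0.63 to 0.44) and Lefty2 (-0.33 to 0.29) for HDAC1-Y48E against HDAC1-WT, and Lefty2 (-0.15 to 0.32) and Gsc (-1.33 to 0.09) for HDAC1-Y48E against HDAC1-E63R. Between lines they were Lefty2 in untreated HDAC1-E63R (-0.07 to 0.23), Wnt3 in untreated HDAC1-Y48E (-0.35 to 0.73), T (-1.32 to 2.03) and Lefty2 (-0.25 to 0.36) in OHT-treated HDAC1-E63R and Wnt3 in OHT-treated HDAC1-Y48E (-0.23 to 0.52). The cause was not tested. Depth limits T, Mixl1, Mesp1 and Lhx1, whose highest count in any library was 18, and Mixl1, Mesp1 and Lhx1 could be fitted only without the filter.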
